A study of Mus musculus with 30 samples.

Results

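The growth hormone (GH) and insulin-like growth factor (IGF) axis was described by 10 genes, Ghr, Stat5a, Stat5b, Socs2, Cish, Igf1, Igfals, Igfbp3, Igfbp1 and Igfbp2. These genes were chosen by their symbols, with earlier results of these data known. They were carried by 11 of the 28815 probe sets on the arrays, 2 for Socs2 and 1 for each other gene, and stood for 10 of the 18781 genes measured. Male C57Bl/6 mice of 10 to 12 weeks, wild-type and given as C57Bl/6J in the title of the deposited series and in the study's methods, either lost access to food for 24 h or ate normal chow freely, with 5 animals per diet and no allele or agent that differed between them. From each, total RNA of epididymal white adipose tissue (WAT), the fat pad beside the testis, of liver (LIV) and of skeletal muscle (SM) was hybridised to 1 Affymetrix Mouse Gene 1.1 ST array, giving 30 arrays in 6 groups. The labels do not name the muscle, and the study's methods give it as that of the thigh.

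GH from the pituitary binds Ghr, a receptor that signals through the kinase Jak2 to the transcription factors Stat5a and Stat5b. In rodents, fasting is known to lower IGF-I in blood. In LIV the Stat5 factors drive Igf1 and Igfals, and in many tissues they drive Socs2 and Cish, whose products damp the same receptor. Most IGF-I in blood is carried in a complex of Igfbp3 and Igfals, whereas Igfbp1 and Igfbp2 form smaller complexes with it, and insulin is known to hold Igfbp1 down in LIV.

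All levels are log2 values after robust multi-array averaging (RMA), on which a step of 1 is 2-fold, and all changes are fasted minus fed on this scale. To be called, a gene had to reach both an adjusted p under 0.05 (limma, Benjamini-Hochberg over all probe sets) and a 1.3-fold change. The arrays fed LIV 4 and fasted SM 5, which had the lowest mean correlation with their groups (0.987 and 0.980, against 0.991 to 0.996 for the others), were left out, so that 28 arrays remained. This set was chosen because it had earlier been found to give the authors' fold changes. The study's text names fed LIV 4 and fasted SM 1 as outliers in a principal component analysis. Marker genes followed the labels: the mean over 8 hepatocyte markers was 12.48 to 12.58 in LIV, that over 9 adipocyte markers was 11.29 to 11.97 in WAT, and that over 12 muscle fibre markers was 12.26 to 12.46 in SM. The SM samples also carried fat transcripts, with adipocyte means of 8.43 to 10.11 in fed and 8.57 to 9.33 in fasted mice. In such whole-tissue RNA, fewer cells of a type and less RNA per cell cannot be told apart.

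Igfals was called in WAT and LIV, Socs2 and Cish in LIV and SM, Igfbp3 in WAT and SM, and Ghr, Igf1 and Igfbp1 in 1 tissue each. In WAT, 2 of the 10 genes were called (Igfals fell, Igfbp3 rose), beside 15.7% of all genes (7.99% up, 7.75% down), a share near that of the members. In LIV, 4 were called (Socs2, Cish and Igfals fell, Igfbp1 rose), beside 7.54% of all genes (3.53% up, 4.01% down). In SM, 5 were called (Ghr, Socs2, Cish and Igf1 fell, Igfbp3 rose), beside 13.6% of all genes (7.8% up, 5.78% down). The median change of the 10 genes was −0.19 in WAT, −0.31 in LIV and −0.19 in SM, beside 0.01, 0.03 and −0.00 for all genes. Fasted and fed arrays did not overlap for 5 members in WAT (21.6% of all genes), 3 in LIV (17.3%) and 7 in SM (22.9%).

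**Figure D1:**
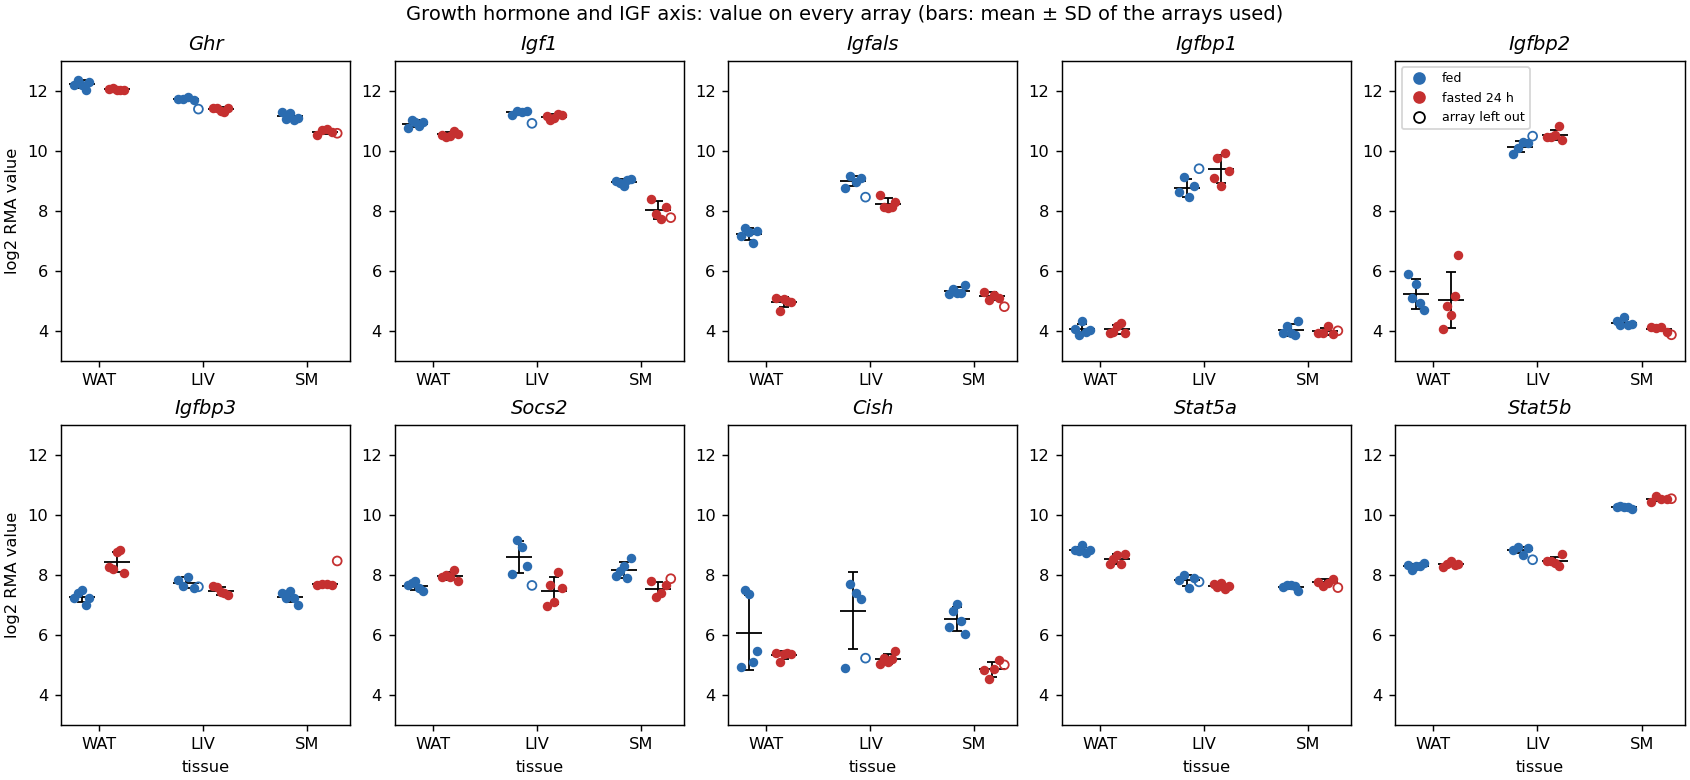
Log2 RMA value (y axis) of the 10 genes on every array in WAT, LIV and SM (x axis), fed in blue and fasted in red, with open circles for the 2 arrays left out and bars for the mean ± SD of the others. Igfals in WAT lay at 6.93 to 7.43 in fed and 4.66 to 5.11 in fasted mice, and the Cish values of fed mice were spread far wider than those of fasted mice in WAT and LIV.

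Ghr, the receptor for GH, was highest in WAT, lower in LIV and lowest in SM of fed mice, with means of 12.23 ± 0.13 (SD, n = 5), 11.74 ± 0.04 (n = 4) and 11.15 ± 0.12 (n = 5), and each of the 3 tissues differed from the others (adjusted p at most 1.83e-07). In fed SM the values were 11.29, 11.07, 11.27, 11.03 and 11.11, and in fasted SM 10.54, 10.71, 10.72 and 10.63. All fasted muscles lay below all fed muscles, and Ghr fell by 0.50 ± 0.06 (SE; 1.42-fold, adjusted p = 7.62e-07). With all 30 arrays the change was −0.52 (adjusted p = 1.94e-06).

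In LIV, Ghr read 11.75, 11.72, 11.79 and 11.71 in fed mice and 11.44, 11.42, 11.33, 11.30 and 11.45 in fasted mice. The groups did not overlap and the change of −0.36 ± 0.06 had an adjusted p of 0.000236, but at 1.28-fold it stayed under the minimum fold and was not called. The left-out array fed LIV 4 read 11.40, within the range of the fasted livers, and with all 30 arrays the change was −0.29 (adjusted p = 0.00578). The Ghr change in WAT was smaller still, at −0.17 ± 0.06 (adjusted p = 0.0355), and the groups overlapped. None of the differences in the Ghr change between tissues was called, the widest being WAT against SM at 0.33 (adjusted p = 0.00751, 1.26-fold).

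Stat5a and Stat5b, which transmit the receptor's signal to the genome, lie next to each other on chromosome 11 in the RefSeq annotation of GRCm38.p6. In fed mice they were distributed differently: Stat5a was highest in WAT (8.83 ± 0.11, against 7.82 ± 0.18 in LIV and 7.61 ± 0.09 in SM), and Stat5b was highest in SM (10.26 ± 0.04, against 8.83 ± 0.12 in LIV and 8.29 ± 0.08 in WAT). LIV and SM differed in Stat5a by 0.21 (adjusted p = 0.0292), which was under the minimum fold.

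With all 28 arrays, neither Stat5 gene was called in any tissue, although several of the changes had a low adjusted p under the fold limit. Stat5b changed by −0.37 ± 0.07 in LIV (1.29-fold, adjusted p = 0.000325), which was called without fed LIV 3 (−0.42), without fasted LIV 5 (−0.42) and with cyclic loess (−0.38), and by 0.27 ± 0.07 in SM (1.21-fold, adjusted p = 0.00342), where fed muscles lay at 10.20 to 10.29 and fasted muscles at 10.43 to 10.62. The Stat5b changes in LIV and SM differed from each other by −0.64 ± 0.10 (adjusted p = 1.97e-05), and those in LIV and WAT by −0.44 ± 0.09 (adjusted p = 0.00103). With all 30 arrays the first of these differences was −0.57 and still called, and the second was −0.37 (adjusted p = 0.00993) and under the minimum fold. Stat5a changed by −0.31 ± 0.08 in WAT (1.24-fold, adjusted p = 0.00309), from 8.71 to 9.01 in fed to 8.35 to 8.70 in fasted mice, by −0.19 in LIV and by 0.14 in SM. Its changes in WAT and SM differed by −0.46 ± 0.11 (adjusted p = 0.00542).

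Cish, a cytokine-inducible inhibitor of the receptor and a classic Stat5 target, is shown with its promoter because it carried 2 copies of the Stat5 motif TTCNNNGAA, in capitals below. The window runs from 250 bases before to 30 bases after the start of the transcript, on the plus strand of chr9:107296409-107296688 (RefSeq, GRCm38.p6). The first copy began at the first transcribed base.
Cish: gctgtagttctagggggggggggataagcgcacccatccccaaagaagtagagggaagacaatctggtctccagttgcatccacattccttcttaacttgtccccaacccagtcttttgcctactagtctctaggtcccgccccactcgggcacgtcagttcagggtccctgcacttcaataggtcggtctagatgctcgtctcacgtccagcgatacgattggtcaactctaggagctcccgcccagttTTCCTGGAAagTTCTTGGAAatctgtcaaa
TTCNNNGAA, which reads the same on both strands, occurred in 7.83% of 32851 mouse promoters of this length, and 0.408% held 2 or more. A match of letters is a description of the sequence and was not tested for binding.

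The Cish values of fed mice split widely. In fed WAT they were 4.94, 7.49, 7.38, 5.08 and 5.47, and in fed LIV 4.90, 7.71, 7.38 and 7.20, with 5.22 on the left-out array fed LIV 4. In fed SM they were 6.25, 6.80, 7.03, 6.45 and 6.04. The arrays numbered 2 and 3 were the highest of the fed group in each of the 3 tissues, and the one numbered 1 was the lowest in WAT and LIV. The labels do not say that a number stands for the same mouse in different tissues.

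Fasted mice gave uniformly low Cish values, at 5.09 to 5.41 in WAT, 5.03 to 5.44 in LIV and 4.53 to 5.17 in SM. The SD in WAT was 1.26 among fed and 0.13 among fasted mice, and in LIV 1.28 and 0.16. Cish fell by 1.67 ± 0.46 in SM (3.19-fold, adjusted p = 0.00821), where no fasted array reached the lowest fed one, and with all 30 arrays by 1.64 (adjusted p = 0.00919). In LIV it fell by 1.60 ± 0.46 (3.03-fold, adjusted p = 0.0189), although the lowest fed liver lay below all fasted ones. This LIV call rested on few arrays: the adjusted p was 0.0654 with all 30 arrays, 0.101 without fed LIV 2, 0.0701 without fed LIV 3, 0.0543 without fed LIV 5 and 0.0501 when LIV was fitted on its own. The change in WAT was −0.74 ± 0.43 (adjusted p = 0.245), with a 95% confidence interval of −1.64 to 0.15. No difference in Cish between tissues was called, either in the fed level (smallest adjusted p = 0.189) or in the change (smallest adjusted p = 0.373).

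Bcl6, a repressor that competes with Stat5 for its sites and that GH holds down in male liver, was set beside Cish after the values of both had been seen, and the comparison is a description with no test. In fed WAT, Bcl6 read 9.52, 7.90, 7.76, 9.03 and 8.86. In fed LIV it read 9.19, 7.21, 6.86 and 7.26, with 9.12 on the left-out fed LIV 4. In both tissues the fed arrays with a low Cish value had a high Bcl6 value, and those with a high Cish value a low one. Fed SM, where Cish was spread less, gave 9.23, 9.51, 8.90, 9.17 and 8.94 and showed no such split. The fasted values of Bcl6 lay between the low and the high fed ones in LIV (7.94 to 8.62) and close to the low ones in WAT (7.88 to 8.23).

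**Figure D2:**
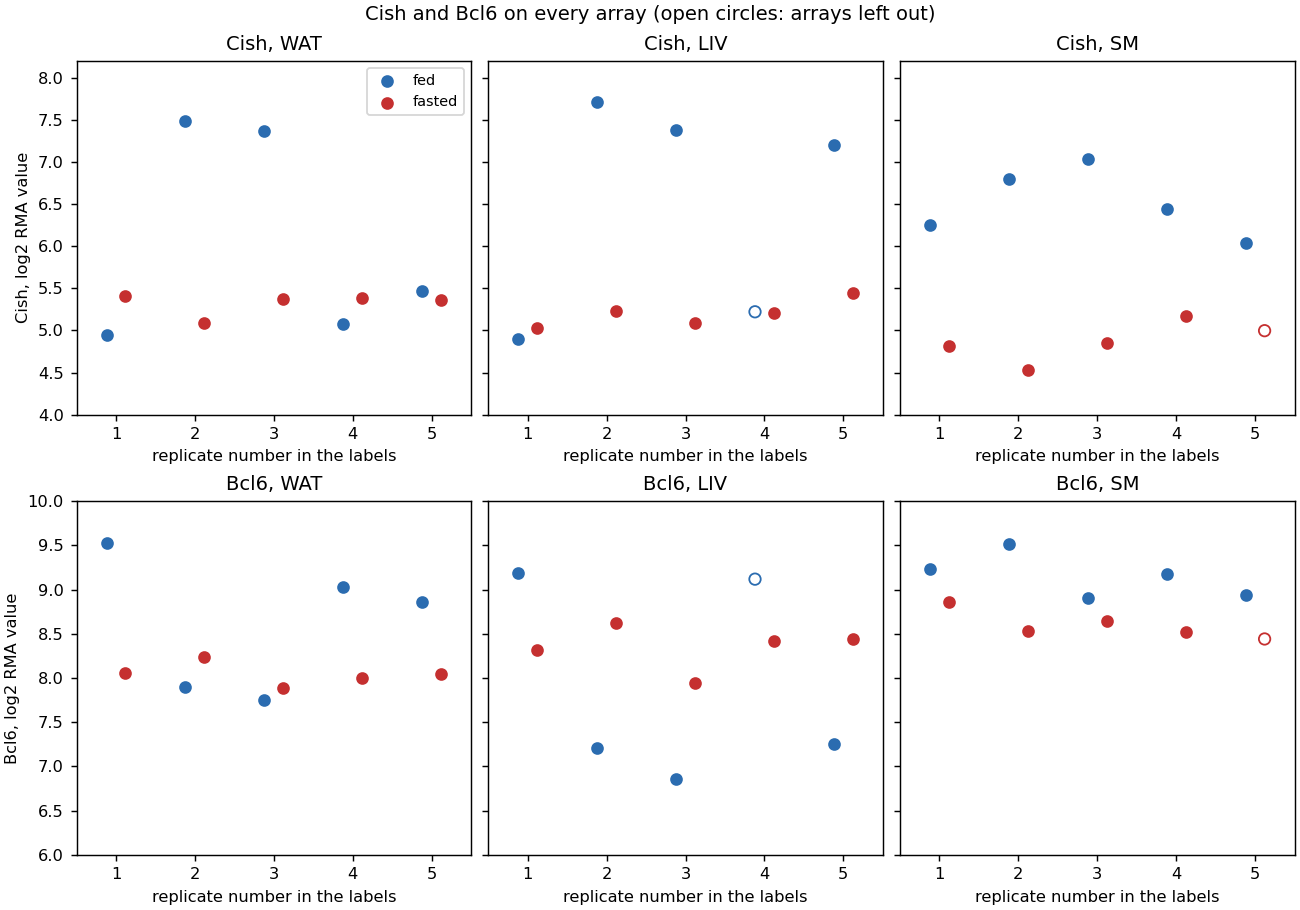
Log2 RMA value of Cish (upper row) and Bcl6 (lower row) against the replicate number of the labels (x axis) in WAT, LIV and SM, with fed arrays in blue, fasted arrays in red and open circles for the arrays left out. Fed arrays 2 and 3 stood highest for Cish in every tissue and lowest for Bcl6 in WAT and LIV, and fasted Cish values lay between 4.53 and 5.44.

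Socs2, a suppressor of cytokine signalling whose loss in mice gives an overgrown animal, fell in LIV and SM, and was not called in WAT. Its fed level was 8.60 ± 0.53 in LIV, 8.17 ± 0.26 in SM and 7.63 ± 0.13 in WAT, of which WAT differed from both others (adjusted p 0.000147 and 0.0166) and LIV and SM were not told apart (adjusted p = 0.0673). Fed livers gave 8.02, 9.15, 8.93 and 8.31 and fasted livers 6.97, 7.67, 7.09, 8.10 and 7.55, with the left-out fed LIV 4 at 7.65. Among the fed livers in the fit Socs2 took the same order as Cish, with array 2 highest and array 1 lowest. The left-out fed LIV 4 was the lowest fed liver for Socs2 but not for Cish (5.22). In fed SM the orders differed, with array 5 highest for Socs2 (8.55) and lowest for Cish (6.04). In LIV the fed and fasted groups overlapped by the highest fasted and the lowest fed array. Socs2 fell there by 1.13 ± 0.20 (2.18-fold, adjusted p = 0.000224), or by 0.94 (adjusted p = 0.00316) with all 30 arrays.

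In SM, Socs2 read 7.98, 8.12, 8.30, 7.90 and 8.55 in fed and 7.80, 7.28, 7.41 and 7.67 in fasted mice. The groups did not overlap and the fall was 0.63 ± 0.20 (1.55-fold, adjusted p = 0.0222). The call was lost with all 30 arrays (−0.56, adjusted p = 0.0624) and without any of fed SM 3, fed SM 5, fasted SM 2 or fasted SM 3 (adjusted p 0.0501 to 0.0769). In WAT, fed mice read 7.46 to 7.78 and fasted mice 7.79 to 8.17, a change of 0.33 ± 0.19 (adjusted p = 0.237). With WAT fitted on its own the adjusted p was 0.0108, and the change stayed under the minimum fold. The Socs2 change in LIV lay 1.45 ± 0.28 below that in WAT (adjusted p = 0.000338), and that in WAT 0.96 ± 0.28 above that in SM (adjusted p = 0.0151). The dimmer probe set for Socs2 changed by −0.54 in SM (adjusted p = 0.00218, called), by −0.36 in LIV (adjusted p = 0.0559) and by 0.32 in WAT (adjusted p = 0.0456), so the probe sets disagreed on the call in LIV.

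Igf1, the growth factor itself, was highest in LIV of fed mice (11.30 ± 0.07), 1.31-fold lower in WAT (10.91 ± 0.11) and 5.03-fold lower in SM (8.97 ± 0.09), and all 3 tissues differed (adjusted p at most 0.000506). Its clear fall on fasting was in SM. There the values were 8.98, 8.92, 8.85, 9.02 and 9.07 in fed and 8.39, 7.90, 7.72 and 8.12 in fasted mice. The groups lay well apart, and Igf1 fell by 0.94 ± 0.09 (1.91-fold, adjusted p = 6.46e-09), or by 0.99 with all 30 arrays.

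Igf1 in LIV gave 11.20, 11.34, 11.31 and 11.35 in fed and 11.15, 11.03, 11.10, 11.24 and 11.19 in fasted mice. The groups overlapped and the change of −0.15 ± 0.09 (95% confidence interval −0.34 to 0.03, adjusted p = 0.292) was not called. The left-out fed LIV 4, at 10.92, lay below all fasted livers, and with all 30 arrays the change was −0.08 (adjusted p = 0.71). In WAT, Igf1 read 10.75 to 11.03 in fed and 10.45 to 10.68 in fasted mice without overlap, a change of −0.36 ± 0.08 (adjusted p = 0.00157). At 1.28-fold it stayed just under the minimum fold, and it was called when any of fed WAT 1, fed WAT 4 or fasted WAT 4 was left out. The change in SM was larger than in LIV by 0.78 ± 0.13 (adjusted p = 5.42e-05) and larger than in WAT by 0.58 ± 0.12 (adjusted p = 0.00117).

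Some markers of connective tissue fell in SM alongside Igf1. Of 10 fibroblast and stellate cell markers, 4 fell (Col1a1, Col1a2, Col3a1 and Lum) and none rose, beside 5.78% of all genes that fell. The mean of the 10 was 7.94 to 8.19 in fed and 7.63 to 8.05 in fasted muscles, with overlap. Of the 9 adipocyte markers 3 fell and 2 rose there. Their part in the result was not tested. The genes most like Igf1 over the 28 arrays, once each tissue's mean was removed, were Fsd1l (r = 0.908), Sh3glb2 (r = 0.908) and Pwwp3b (r = 0.901), given as a description over arrays that share their tissues and diets. Each was called lower in fasted SM, by 1.21, 0.53 and 1.40. Diet was not removed, so a shared change on fasting favoured the choice of these genes. The same holds for the genes most like Igfbp1, Igfbp2 and Socs2 below.

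Igfals, the acid-labile subunit that stabilises the circulating IGF-I complex, showed the largest change of the axis, and it was in WAT. Fed WAT gave 7.15, 7.43, 7.30, 6.93 and 7.34 and fasted WAT 5.11, 4.66, 5.06, 4.99 and 4.97. The groups were separated by 1.82, and Igfals fell by 2.27 ± 0.10 (4.84-fold, adjusted p = 3.99e-15). Fasted WAT (4.96 ± 0.18) thereby lay under the median of all values, 5.02, and near the values of SM, which read 5.24 to 5.51 in fed and 5.02 to 5.31 in fasted mice and did not pass the test for a change (−0.18 ± 0.11, adjusted p = 0.261). The mean of 8 hepatocyte markers in WAT was 4.38 to 4.70 in fed and 4.80 to 5.21 in fasted mice, with 2 of the 8 called higher and none lower. Of 9 adipocyte markers in WAT, 2 fell (Lep and Slc2a4) and none rose, and the mean of all 9 was 11.76 to 11.97 in fed and 11.29 to 11.70 in fasted mice, without overlap. Their part in the result was not tested.

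LIV had the highest Igfals level (fed 8.99 ± 0.17). Fed livers gave 8.76, 9.15, 8.97 and 9.09 and fasted livers 8.53, 8.12, 8.11, 8.12 and 8.31. The groups did not overlap, and Igfals fell by 0.75 ± 0.11 (1.68-fold, adjusted p = 1.17e-05), or by 0.65 (adjusted p = 0.000365) with all 30 arrays, which include fed LIV 4 at 8.46. The change in LIV lay 1.52 ± 0.15 above that in WAT (adjusted p = 2.82e-08), and the change in WAT minus that in SM was −2.09 ± 0.15 (adjusted p = 8.93e-11). The difference for LIV minus SM, −0.57 ± 0.15 (adjusted p = 0.00876), was lost with all 30 arrays (−0.39, adjusted p = 0.128).

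Igfals has 3 annotated starts, and the window of the first, on the plus strand of chr17:24877594-24877873 (RefSeq, GRCm38.p6), is shown because it holds the Stat5 motif in capitals, as Cish does.
Igfals: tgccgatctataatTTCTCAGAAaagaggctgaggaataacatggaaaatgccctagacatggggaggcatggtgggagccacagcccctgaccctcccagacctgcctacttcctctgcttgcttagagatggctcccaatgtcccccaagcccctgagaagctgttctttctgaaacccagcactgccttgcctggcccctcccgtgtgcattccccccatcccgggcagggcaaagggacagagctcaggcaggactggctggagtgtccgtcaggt
The motif also occurred once in the window of the next start, at bases −58 to −50. Far from it, at bases −242 to −236, that window held 1 match, on the opposite strand, to GTAAACA. This motif of FoxO and other forkhead factors was found in 3.49% of promoters. The window of the last start held neither. In all, RefSeq promoters were matched for 9 of the 10 genes with 15 starts (Socs2 had no entry), and those of Ghr, Igf1, Igfbp2, Igfbp3, Stat5a and Stat5b held none of the motifs searched.

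Igfbp3, the main carrier of IGF-I in blood, rose in fat while Igfals fell there. Its fed level was 7.74 ± 0.18 in LIV, higher than in WAT and SM (both 7.27), which differed by 0.00 (adjusted p = 0.977). Its values in WAT were 7.24, 7.39, 7.51, 6.99 and 7.23 in fed and 8.27, 8.21, 8.76, 8.84 and 8.06 in fasted mice. All fasted arrays lay above all fed ones, and Igfbp3 rose by 1.16 ± 0.12 (2.23-fold, adjusted p = 3.98e-08). Beside it in WAT, 2 of 10 macrophage markers rose (Cd163 and Cd14) and 1 fell (Timd4), 1 of 8 endothelial markers rose and 1 fell, and 2 of 10 fibroblast markers fell, and their part in the result was not tested.

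In SM, Igfbp3 read 7.40, 7.24, 7.46, 7.22 and 7.01 in fed and 7.68, 7.68, 7.71 and 7.65 in fasted mice. The groups did not overlap and Igfbp3 rose by 0.41 ± 0.13 (1.33-fold, adjusted p = 0.0211), a call that was lost without fed SM 5 (adjusted p = 0.0676) or fasted SM 3 (adjusted p = 0.0517). The left-out fasted SM 5 read 8.46, higher than any other muscle. On that array the mean of 7 lymphocyte markers was 7.89, against 3.82 to 4.08 on the other muscle arrays, and with all 30 arrays the rise was 0.57 (adjusted p = 0.00511). In LIV the change was −0.27 ± 0.13 (adjusted p = 0.192), from 7.55 to 7.94 in fed to 7.32 to 7.63 in fasted mice. The LIV change lay below that in WAT by 1.43 ± 0.18 (adjusted p = 1.71e-06) and below that in SM by 0.69 ± 0.18 (adjusted p = 0.00984), and the WAT change exceeded that in SM by 0.74 ± 0.18 (adjusted p = 0.00398). This last difference was 0.59 (adjusted p = 0.0611) with all 30 arrays.

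Igfbp1, which binds IGF-I acutely when insulin is low, was a liver transcript in these tissues. In fed mice it lay at 8.76 ± 0.29 in LIV and at 4.05 ± 0.17 in WAT and 4.04 ± 0.20 in SM, both below the median of all values, 5.02. The gene adjoins Igfbp3 on chromosome 11. Its promoter, on the plus strand of chr11:7197537-7197816 (RefSeq, GRCm38.p6), is shown for the insulin response motif CAAAACA, in capitals, which lay at bases −108 to −102 from the start and was found on either strand in 5.97% of promoters.
Igfbp1: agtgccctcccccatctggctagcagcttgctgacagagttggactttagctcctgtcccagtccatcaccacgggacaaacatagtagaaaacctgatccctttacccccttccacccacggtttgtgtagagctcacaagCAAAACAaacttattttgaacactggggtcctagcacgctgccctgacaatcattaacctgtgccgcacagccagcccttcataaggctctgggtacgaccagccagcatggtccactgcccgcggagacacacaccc
Fed livers gave 8.63, 9.13, 8.46 and 8.82, and fasted livers 9.08, 9.77, 8.83, 9.93 and 9.34. The groups overlapped, and Igfbp1 rose by 0.63 ± 0.16 (1.55-fold, adjusted p = 0.00958). With all 30 arrays, which include fed LIV 4 at 9.41, the rise was 0.50 (adjusted p = 0.0478), and the call was lost without fed LIV 3 (0.53, adjusted p = 0.0503) and when LIV was fitted on its own (adjusted p = 0.0992).

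In WAT and SM the changes of Igfbp1 were 0.00 ± 0.16 and −0.06 ± 0.16. The change in LIV differed from that in SM by 0.69 ± 0.23 (adjusted p = 0.0409), a call held in 27 of 41 other settings and lost with all 30 arrays (adjusted p = 0.119). It differed from that in WAT by 0.63 ± 0.23, which did not pass (adjusted p = 0.0548). The genes whose values followed Igfbp1 most closely were Defb1 (r = 0.779), Nipal1 (r = 0.756) and Ccdc18 (r = 0.735). Defb1 and Nipal1 rose in fasted LIV, by 1.32 and 2.00, and Ccdc18 changed by 0.14 (adjusted p = 0.261).

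Igfbp2, a carrier made mainly by LIV, lay at 10.14 ± 0.18 in fed LIV, 5.23 ± 0.49 in fed WAT and 4.27 ± 0.11 in fed SM, and all 3 tissues differed (adjusted p at most 0.00325). Fed livers gave 9.90, 10.09, 10.30 and 10.27 and fasted livers 10.45, 10.48, 10.55, 10.82 and 10.38. No fasted liver overlapped with a fed one in the fit, yet the change of 0.40 ± 0.29 was not called (adjusted p = 0.433), and the left-out fed LIV 4 read 10.50. The fit takes 1 spread for all tissues, and with LIV fitted on its own the adjusted p was 0.0358.

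The wide spread of Igfbp2 was in WAT, where fed mice read 5.90, 5.08, 5.56, 4.94 and 4.68 and fasted mice 4.05, 4.84, 4.54, 5.15 and 6.53. The fasted array numbered 5 was the highest WAT array and the others lay at 5.15 or below. The change was −0.21 ± 0.27 (adjusted p = 0.681) with it and −0.58 (adjusted p = 0.0207) without it. On SM arrays the fed and fasted values of Igfbp2 did not overlap in the fit. Igfbp2 changed there by −0.20 ± 0.29 (adjusted p = 0.698), with an adjusted p of 0.0717 when SM was fitted on its own. The genes most like it were Slc6a4 (r = 0.855), Gabrb1 (r = 0.801) and Cldn11 (r = 0.779), none of them called changed in any tissue, and those most like Socs2 were Wsb1 (r = 0.822), Acsl4 (r = 0.781) and Lifr (r = 0.776), all 3 called lower in fasted LIV by 0.76, 0.40 and 0.84.

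**Figure D3:**
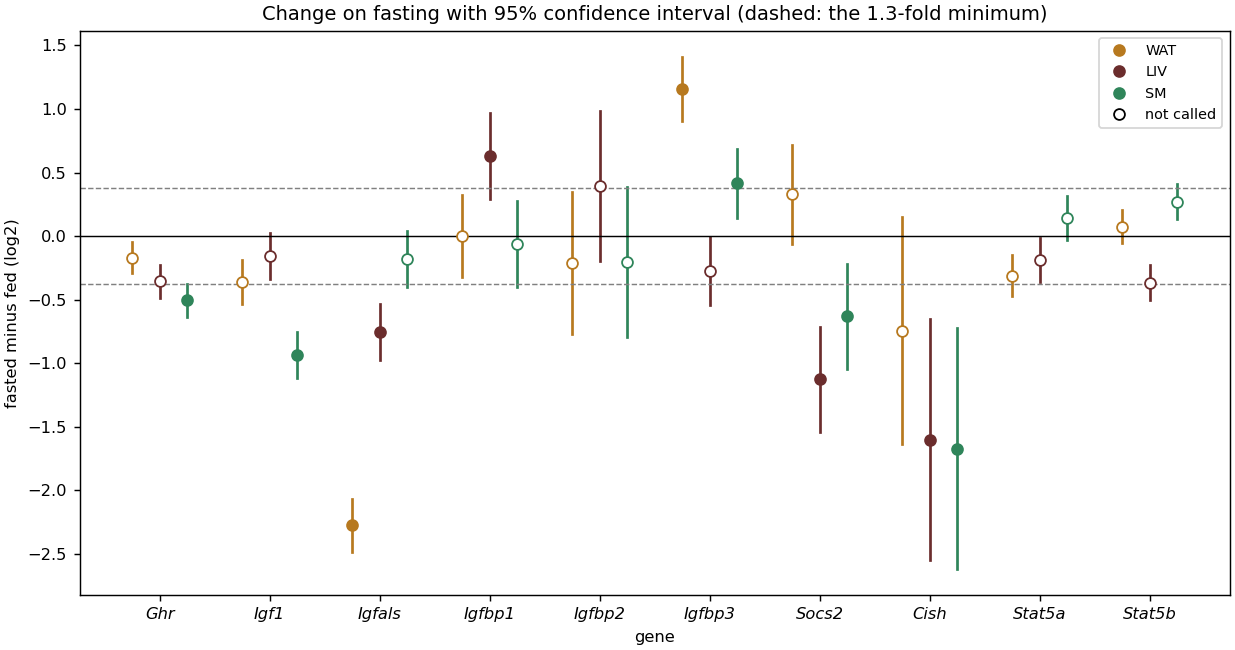
Fasted minus fed change on the log2 scale (y axis) of the 10 genes (x axis) in WAT, LIV and SM with the 95% confidence interval, filled circles where called and dashed lines at the 1.3-fold minimum. Igfals, at −2.27 in WAT, lay below all other changes, and the intervals of Cish were the widest.

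Across the 10 genes, the fasting change differed between LIV and WAT for 4 (16.1% of all genes), between LIV and SM for 5 (15.3%) and between WAT and SM for 5 (15.1%). The number for LIV against SM was 3 with all 30 arrays. The fed levels differed between LIV and WAT for 9 of the 10 (44.4% of all genes), between LIV and SM for 7 (47.9%) and between WAT and SM for 7 (47.2%). The left-out array fed LIV 4 lay outside the range of the other fed livers for 7 of the 10 genes (Ghr, Igf1, Igfals, Igfbp1, Igfbp2, Socs2 and Stat5b). Each time it lay on the side of the fasted mean. The left-out array fasted SM 5 lay outside its group for 5 of the 10, 2 on the side of the fed mean and 3 away from it. The matching shares of all genes were not computed, so these counts describe the arrays and not the axis.

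Of 12 other genes of the IGF system, 5 were called in WAT (beside 15.7% of all genes), 0 in LIV (7.54%) and 4 in SM (13.6%), and their median change was 0.26, 0.04 and 0.11. Igf1r, the receptor of IGF-I, rose by 0.51 ± 0.08 in WAT (adjusted p = 2.09e-05) and by 1.04 ± 0.09 in SM (adjusted p = 5.45e-10), from 7.63 ± 0.12 to 8.67 ± 0.12. The insulin receptor Insr rose by 0.71 ± 0.06 in WAT and 0.42 ± 0.07 in SM. Igf2r, which clears IGF-II, was called in no tissue, with changes of 0.24 in WAT, −0.03 in LIV and −0.13 in SM. Igf1r in LIV changed by 0.09 (adjusted p = 0.558), and the Igf1r change in SM exceeded that in LIV by 0.95 (adjusted p = 2.41e-06) and that in WAT by 0.53 (adjusted p = 0.0019).

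Igfbp5, a locally acting binding protein whose gene adjoins Igfbp2 on chromosome 1, fell by 2.03 ± 0.27 in SM (adjusted p = 2.36e-06), from 10.84 to 11.03 in fed to 8.56 to 9.27 in fasted mice, and by 1.00 ± 0.26 in WAT (adjusted p = 0.00415). Igfbp7 fell by 0.48 ± 0.11 in SM. The stanniocalcins, which inhibit the proteases that cleave IGF binding proteins, moved oppositely in WAT: Stc1 rose by 1.31 ± 0.24 (adjusted p = 0.000112) and Stc2 fell by 0.91 ± 0.16 (adjusted p = 9.39e-05). Among the 12 genes in LIV, 2 had an unadjusted p under 0.05 in limma, and the largest changes were −0.47 for Igfbp5 (adjusted p = 0.298) and 0.26 for Igfbp4 (adjusted p = 0.0378, under the minimum fold).

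Of 18 measured genes of receptor signalling (kinases, Stat factors, Socs proteins, phosphatases and adaptors of the cytokine and insulin receptors), 3 rose and 1 fell in WAT (beside 15.7% of all genes called), 1 rose and 1 fell in LIV (7.54%), and 2 rose and 3 fell in SM (13.6%), so that the counts in WAT and LIV lay near those of all genes. Jak2, the kinase that Ghr acts through, was called in none, with changes of 0.05 in WAT, −0.14 in LIV and 0.14 in SM (adjusted p 0.196 to 0.667). In WAT the adaptor Grb14, an inhibitor of the insulin receptor, fell by 1.52 ± 0.20, and Grb10, its relative, rose by 0.95 ± 0.11. Irs2, a docking protein of the insulin and IGF-I receptors, rose by 0.67 ± 0.11 in WAT and by 0.46 ± 0.12 in SM, and Stat3 rose by 0.57 ± 0.08 in WAT. In SM, Grb14 fell by 0.60 (adjusted p = 0.0454), Irs1 by 0.50 and Socs1 by 0.40, and the phosphatase Ptpn1 rose by 0.49. The leptin receptor Lepr rose by 0.82 ± 0.23 in LIV (adjusted p = 0.0146) and the kinase Tyk2 fell by 0.40 ± 0.09 there (adjusted p = 0.00219). The median change of these genes was 0.06 in WAT, 0.01 in LIV and 0.03 in SM.

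Genes that GH is known to maintain in the male mouse liver were examined as a further readout in LIV. Of the 14 measured, 6 fell and none rose, with a median change of −0.35, beside 4.01% of all genes that fell. At an unadjusted p under 0.05 in limma, 7 were lower and 1 higher. Hsd3b5, a steroid dehydrogenase of male liver, fell by 4.15 ± 0.21 (adjusted p = 1.52e-13), from 10.45 to 10.66 in fed to 5.66 to 7.65 in fasted mice. Keg1 fell by 1.77 ± 0.13, the serpin Serpina12 by 1.23 ± 0.15, the selenium-binding protein gene Selenbp2 by 1.15 ± 0.16 and the organic anion transporter gene Slco1a1 by 0.79 ± 0.10. The other 8 genes, among them the male cytochromes Cyp2d9, Cyp4a12a and Cyp4a12b and the urinary protein genes Mup3 and Mup20, did not pass, and probes for the Cyp4a12 and Mup genes can also bind close copies of them.

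Of 7 measured genes that GH represses in male liver, 0 were called in LIV by limma, and 3 had an unadjusted p under 0.05, 2 of them higher and 1 lower. The largest changes were 0.72 ± 0.33 for Bcl6 (adjusted p = 0.169) and −0.38 for Cyp3a44 (adjusted p = 0.0642). Beside these LIV results, 5 of 10 macrophage and Kupffer cell markers fell and none rose, with a mean of 6.87 to 7.34 in fed and 6.40 to 6.87 in fasted livers, and 3 of 10 fibroblast and stellate markers fell and 1 rose. Of 9 adipocyte markers 3 rose in LIV (Cidec, Pnpla2 and Plin4) and none fell, with a mean of 5.26 to 5.56 in fed and 5.91 to 6.05 in fasted livers. Their part in the results was not tested, and the hepatocyte mean differed little, at 12.51 to 12.57 in fed and 12.48 to 12.58 in fasted livers.

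**Figure D4:**
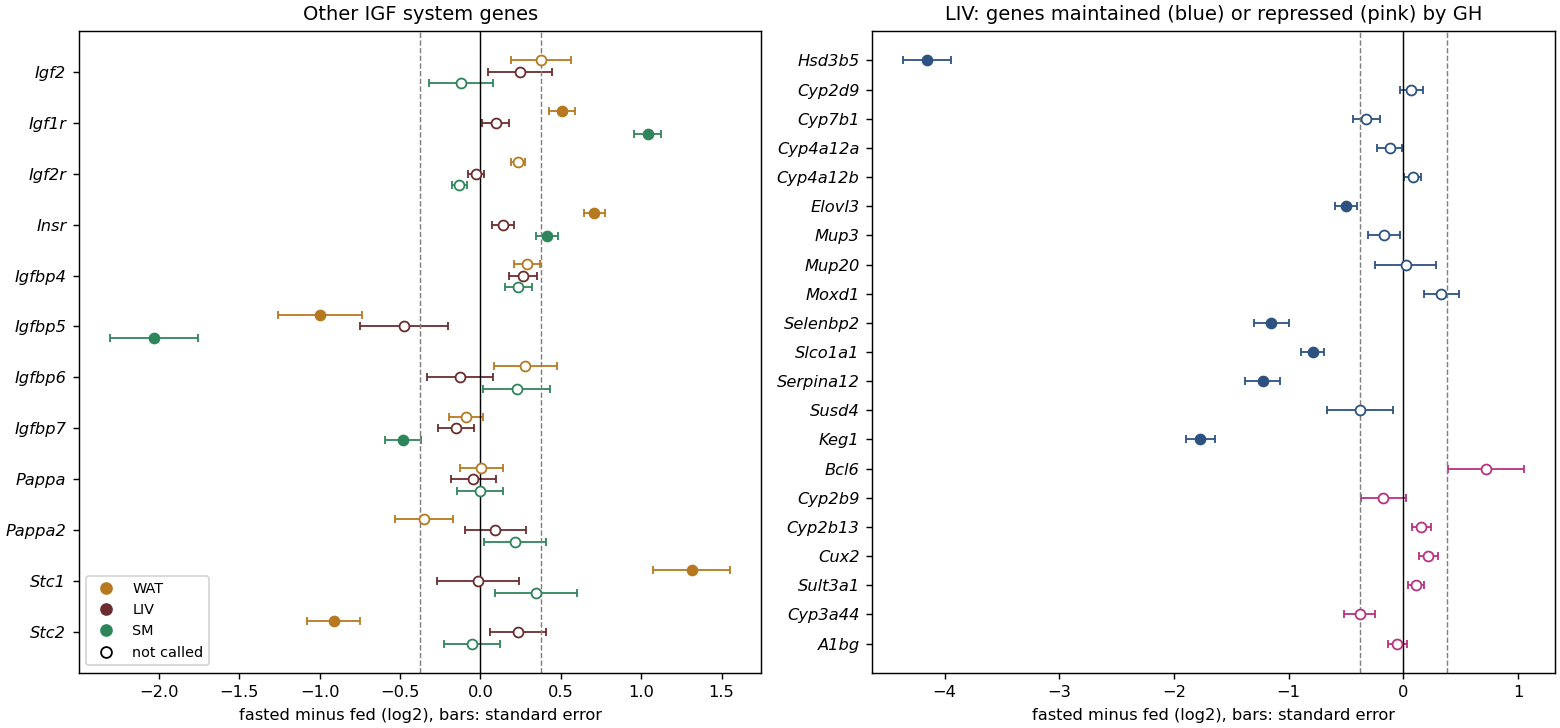
Fasted minus fed change on the log2 scale (x axis) with its standard error for 12 other genes of the IGF system in WAT, LIV and SM, and for genes maintained or repressed by GH in LIV (y axis, gene names), with filled circles where called and dashed lines at the 1.3-fold minimum. Igfbp5 fell by 2.03 in SM while Igf1r rose by 1.04, and Hsd3b5 had the largest change in LIV at −4.15.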

How the data were processed

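Each of the 30 RNA samples (WAT, LIV and SM of 5 fasted and 5 fed mice) was read on a Mouse Gene 1.1 ST array of Affymetrix. The authors deposited log2 values, made in Partek by RMA (background correction, quantile normalization and median polish), which fixes each array's overall distribution, so that a change in total mRNA would not be seen. Array medians were 4.91 to 5.16, and 0 columns lacked a sample. Probe sets were named with the platform annotation: 21153 named 1 gene, 1867 several and 5795 were unlisted. Each gene took its brightest probe set.

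The 6 group means were estimated in R 4.3.3 (limma 3.58.1) for the 28815 probe sets, from 28 arrays (fed LIV 4 and fasted SM 5 left out; the study's text names fasted SM 1, run as an alternative) and moderated variances (prior degrees of freedom 4.24). Compared were fasted and fed mice within a tissue, these changes between tissues, and fed levels between tissues. The fit was tested on simulated data. Each group held 4 or 5 arrays, whose number limits the precision, and the labels call them biological replicates.

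All 10 members were named, and of each wider list and tissue up to 5 called genes with the largest change, or the 2 largest where none was called (Jak2 and the GH-maintained genes that did not pass were added after their values were seen), and the 3 genes most correlated with Igf1, Igfbp1, Igfbp2 and Socs2. Members and lists were chosen with earlier results of these data known. Replicate numbers did not pair fed with fasted arrays, which came from different mice (same-numbered arrays correlated at −0.252 to 0.163 after removal of group means). Alternatives were other array sets, array weights, unmoderated variances, each tissue alone, replicate or mouse blocks, no dim probe sets, cyclic loess, averaged probe sets, other thresholds and the removal of each array. Promoter windows came from RefSeq (GRCm38.p6) and were searched on both strands for TTCNNNGAA, GTAAACA and CAAAACA. Figures used Python 3.11.15 with matplotlib 3.10.9.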

Additional observations from a re-analysis of the deposited data

Results flagged for a closer look

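In 60 sets of 4 or 5 arrays (10 genes in 6 groups), 1 array stood apart by Dixon's criterion, which chance alone meets in about 1 in 20 groups: Cish on fasted WAT 2 read 5.09, with the nearest array at 5.36 and a gap of 0.86 of the group's range.

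The change on fasting differed between tissues for these genes by limma's test of the difference. For Igf1 the change in LIV lay 0.78 above that in SM and the change in WAT 0.58 above that in SM. For Igfals the differences were 1.52 for LIV minus WAT, −0.57 for LIV minus SM and −2.09 for WAT minus SM. For Igfbp3 they were −1.43 for LIV minus WAT, −0.69 for LIV minus SM and 0.74 for WAT minus SM, and for Igfbp1 0.69 for LIV minus SM. For Socs2 they were −1.45 for LIV minus WAT and 0.96 for WAT minus SM. Stat5a gave −0.46 for WAT minus SM, and Stat5b −0.44 for LIV minus WAT and −0.64 for LIV minus SM.

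Of these 14 differences, 7 were called in all 41 alternative settings: LIV minus SM for Igf1, Igfbp3 and Stat5b, LIV minus WAT for Igfals, Igfbp3 and Socs2, and WAT minus SM for Igfals. With all 30 arrays the calls lost were LIV minus SM for Igfals (−0.39) and Igfbp1 (0.56), WAT minus SM for Igfbp3 (0.59) and LIV minus WAT for Stat5b (−0.37). Leaving out fasted SM 1 in place of fasted SM 5, as the study's text has it, also lost calls in limma. These were LIV minus SM for Igfals (−0.45, adjusted p = 0.0529) and WAT minus SM for Igfbp3 (0.55, adjusted p = 0.0996).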

How the results depend on the processing

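Over 30 changes of members (10 genes in 3 tissues) and 1260 values under alternative settings, the direction of a called change was reversed in 0, calls were lost in 20 and gained in 14, and 1226 kept their call. Igf1 and Ghr in SM, Igfals in WAT and LIV, Igfbp3 in WAT, Socs2 in LIV and Cish in SM kept their calls throughout, except Ghr at a minimum of 1.5-fold. Calls were lost for Cish in LIV in 6 settings, Socs2 in SM in 6, Igfbp3 in SM in 5 and Igfbp1 in LIV in 2.

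Counts of called genes moved by over 1.5 times in 33 of 705 values. With all 30 arrays, members whose change differed between LIV and SM numbered 3. With no minimum fold, members called in WAT numbered 5, IGF system genes in LIV 1 and receptor signalling genes in SM 8. At a minimum of 1.5-fold, members called in SM numbered 3, members with other fed levels in LIV and WAT 5, members whose change differed between WAT and SM 3, IGF system genes in SM 2 and receptor signalling genes 1 in SM and 1 in LIV. At an adjusted p under 0.01, members called in SM numbered 3. Receptor signalling genes called in LIV numbered 1 at that threshold, with all 30 arrays, with fasted SM 1 left out in place of fasted SM 5, with each tissue fitted on its own and with fed LIV 4 as the only array left out, a set chosen after seeing the data. GH-repressed genes called in LIV numbered 1 without dim probe sets and 1 with cyclic loess. The cause was not tested.

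When each array was left out in turn, members called numbered 2 to 3 in WAT, 3 to 5 in LIV and 3 to 5 in SM (3 without fed SM 5 or fasted SM 3). Members whose change differed numbered 4 to 5 for LIV and WAT, 4 to 5 for LIV and SM and 5 for WAT and SM, and those whose fed level differed 8 to 10, 7 to 8 and 6 to 7. Of the IGF system genes, 5 to 6 were called in WAT, 0 to 1 in LIV (1 without fed LIV 3) and 3 to 4 in SM. Of the receptor signalling genes, 4 to 5 were called in WAT, 1 to 2 in LIV (1 without fed LIV 2, fed LIV 5 or fasted LIV 4) and 3 to 5 in SM (3 without fed SM 2, fasted SM 1 or fasted SM 4). Of the GH-maintained genes 6 to 7 were called, and of the GH-repressed genes 0 to 2 (2 without fasted LIV 5, and 1 without fed LIV 1, fed LIV 5, fasted LIV 3 or fasted SM 3).

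Fed and fasted arrays came from different mice, and 3 of 13 pairs with the same number correlated over 0.1, from −0.252 to 0.163. Between tissues of the same diet, 6 of 26 same-numbered pairs correlated over 0.1, from −0.122 to 0.177. Whether a number stands for the same mouse across tissues is not settled by these values. With the replicate number as a block, receptor signalling genes called in LIV numbered 0 and Igfbp3 in SM changed by 0.35 (adjusted p = 0.0828). The number within a diet as a random block across tissues (consensus correlation 0.027) changed no call of a member. Among the members, group means below the median of all values, 5.02, were those of Igfbp1 in WAT and SM, Igfbp2 in SM, Igfals in fasted WAT and Cish in fasted SM. The files hold no background level, so that how far their folds are understated was not tested.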
